A study of Homo sapiens with 2 samples.

Results

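The clustered histone genes are the genes for histones H1, H2A, H2B, H3 and H4 that lie together in 4 places of the human genome. They were taken by their symbols in the deposited tables, which start with HIST, the number of the cluster and the class. The rule found 72 of the 22306 symbols, on 79 table rows. For 3 of them (HIST2H2AA4, HIST2H3C and HIST2H4B) each row repeated the place and both counts of another member, which left 69 genes, of which 6 were H1, 16 H2A, 20 H2B, 13 H3 and 14 H4. RNA was measured by sequencing in 786-O, a human cell line derived from a clear cell renal carcinoma, with 1 library from medium with 0 mM glucose and 1 library from medium with 25 mM glucose. The sources used here state neither the time without glucose nor the library preparation. The descriptions LucG (0 mM) and LucF (25 mM) are not explained, and anything else that differed between both cultures cannot be told apart from glucose.

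Histones package DNA into nucleosomes, whose core holds H2A, H2B, H3 and H4, and linker histone H1 binds the DNA between them. A dividing cell doubles its histones while it copies its DNA, and the clustered genes supply most of that protein. Their transcription in S phase depends on NPAT, a substrate of cyclin E and CDK2, and most of their mRNAs carry no poly(A) tail but end in a stem-loop that the protein SLBP binds.

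The stem-loop is shown because it sets these mRNAs apart from others. The letters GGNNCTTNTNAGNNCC, read on the transcript strand alone, were found in the GENCODE v29 transcripts of 30 of the 69 members (43.5%) and of 0.272% of the other 57064 gene names. Many of the annotated histone transcripts stop near the coding end, so no match says only that the letters are not in the annotated transcript. The matches came in 6 distinct sequences of 16 bases, given 5′ to 3′ as DNA with the 6 bases of each stem arm in capitals and the 4 bases of the loop in lower case. Each is named by a member, with its place on GRCh38.
HIST1H3H, chr6:27810516-27810531, plus strand: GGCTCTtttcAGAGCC
HIST4H4, chr12:14770724-14770739, minus strand: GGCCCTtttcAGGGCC
HIST1H3G, chr6:26270923-26270938, minus strand: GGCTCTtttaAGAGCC
HIST1H4I, chr6:27139654-27139669, plus strand: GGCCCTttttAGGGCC
HIST1H2AG, chr6:27133515-27133530, plus strand: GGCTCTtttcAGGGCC
HIST1H3E, chr6:26225596-26225611, plus strand: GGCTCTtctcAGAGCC
The first sequence stood in 15 members of H2A, H2B and H3, the second in 5 members, all of H4, and the third in 5 of H2B and H3. The stem arms paired at all 6 positions by Watson-Crick rules in 5 of the 6 sequences and at 5 positions in that of HIST1H2AG.

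The library without glucose held 31345828 counts and the library with glucose 27317584. With 1 library per group no difference has a replicate check and no test was made, so higher and lower refer to these libraries. PAX8, a transcription factor of renal epithelium, stood at 233 CPM without glucose and 243 CPM with it, where CPM is counts per 1000000 after TMM scaling, while CA9, a marker of clear cell carcinoma, had 0 CPM and 0.143 CPM. All 4 leukocyte and all 4 erythroid markers were under 1 CPM in both libraries, as were 3 of 4 endothelial and 2 of 4 fibroblast markers. Of the other kidney markers, the cadherin CDH6 was lower, at 8.40 CPM without glucose and 191 CPM with it. Small RNA genes (snoRNAs, scaRNAs, microRNAs) held 7.99% of counts in the library without glucose and 5.83% in that with glucose, and their part in the histone result was not tested beyond leaving them out.

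The clustered histone genes were lower without glucose in nearly all members and all 5 classes. All members together held 33644 counts without glucose and 206383 with it, which was 0.107% of the library without glucose (95% Clopper-Pearson interval 0.106 to 0.108%) and 0.755% of the library with glucose (0.752 to 0.759%). Their summed level was 1099 CPM without glucose and 7377 CPM with it, 6.71-fold lower (95% counting interval 6.63 to 6.79). All intervals cover counting error only. RNA of the whole culture was measured, so fewer cells making histone mRNA and less of it per cell cannot be told apart.

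Genes that had 20 or more counts in both libraries together are termed measured, and a gene was called lower when the exact 95% interval of its ratio lay wholly below 0.5-fold. Of the 69 genes 61 were measured, of which 58 were lower, 0 were higher and 3 were neither. Under 20 counts without glucose were the measured members HIST1H1A, HIST1H2AA, HIST1H2BB, HIST1H2BE, HIST1H2BM, HIST1H4L, HIST2H2BA, HIST2H2BF, HIST2H3A and HIST3H2A. They passed the minimum through their higher counts with glucose. All of them but HIST1H2AA and HIST3H2A were among the 58, so their calls lean on this filter. Among all 14230 measured genes, 6.06% were lower by this rule and 3.92% were higher, when the interval lay wholly above 2-fold. The median log2 ratio of the 61 members was -2.86, with a range of -4.91 to -0.88, and that of all measured genes was 0.03. Of the 84 measured genes outside the family with 1 exon of at most 1000 bases, small RNA genes left out, 2.38% were lower, and their median log2 ratio was 0.18. With a 4-fold bound 45 members were lower and 0 higher, against 0.998% and 0.871% of all genes, and with a 1.5-fold bound 59 were lower and 0 higher, against 12.2% and 10.6%. With the small RNA genes left out of the table and its scaling, 58 members were again lower, with a median of -2.85. Among the 100 measured genes with the lowest log2 ratios, 32 were members, and among the lowest 200 there were 47.

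**Figure D1:**
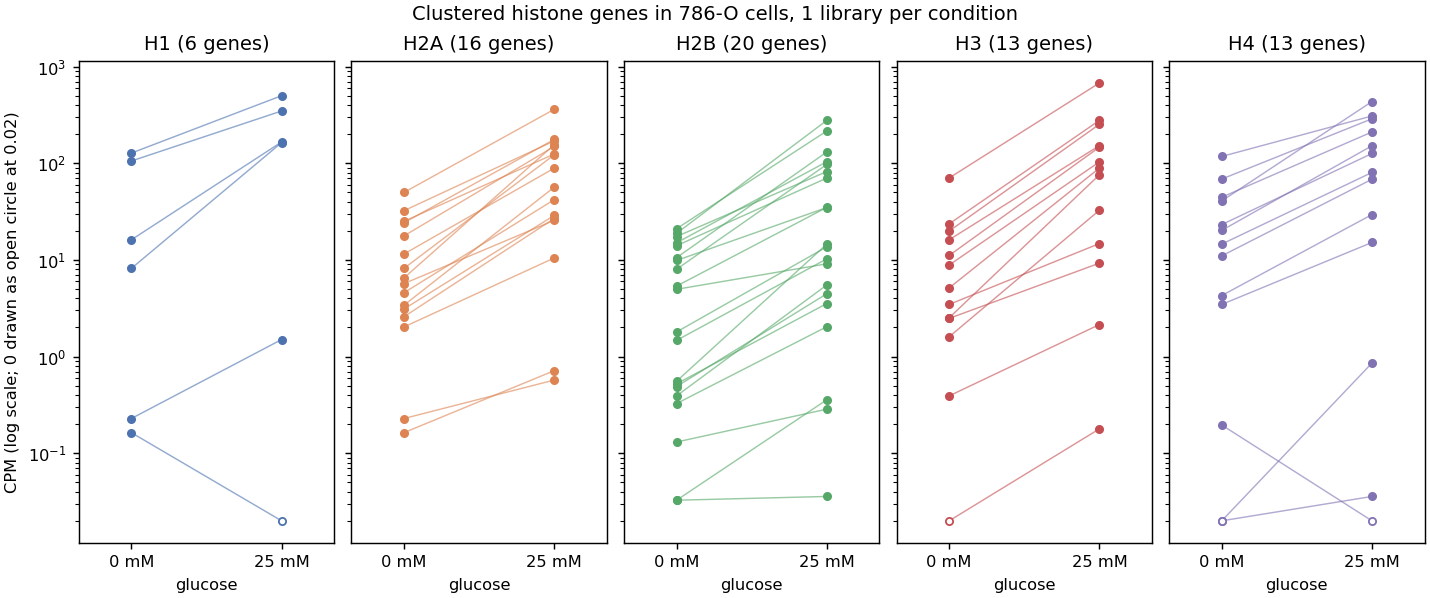
CPM of each clustered histone gene with at least 1 count (points, log scale) in the library with 0 mM glucose (left of each panel) and the library with 25 mM glucose (right), joined by a line per gene, in a panel per class. Open circles mark 0 counts. Nearly all lines climb to the right, and HIST1H1T and HIST2H4A, with 5 and 6 counts without glucose and 0 with it, run the other way.

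The levels with glucose placed many histone genes among the well expressed genes of the cells. By RPKM, the authors' reads per kilobase of gene and per 1000000 reads, 3 members without glucose and 33 with glucose were among the 500 highest of the measured genes, and none was among the highest 100 in either library. HIST1H3B, an H3 gene, had the most counts of the members with glucose, while HIST1H1C, at 3897 counts, had the most without it. HIST1H3B had 2155 counts without glucose and 18929 with it, or 147 and 1484 RPKM, at rank 574 without glucose and rank 124 with it. Of the members, HIST4H4 had the highest RPKM without glucose, 282 RPKM at rank 353, against 775 RPKM at rank 175 with glucose.

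The size of the difference went little with the level with glucose. Across the 61 members, which share both libraries, Spearman's rho of the log2 ratio with CPM with glucose was -0.184. It was -0.0853 over the 55 with at least 100 counts. Both values of rho are descriptions across genes, which are not independent replicates. CPM with glucose is also the divisor of the ratio, and the level without glucose was not set against the ratio.

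Classes differed in how far they were lower. The summed H3 genes stood at 166 CPM without glucose and 1833 CPM with it, 11.1-fold lower (10.8 to 11.4), the largest fold of the 5 classes. Summed H2B genes had 131 CPM without glucose and 1111 CPM with it, 8.49-fold lower (8.22 to 8.78), and summed H2A genes had 197 CPM without glucose and 1540 CPM with it, 7.81-fold lower (7.60 to 8.03). Summed H4 genes had 348 CPM without glucose and 1714 CPM with it, 4.92-fold lower (4.82 to 5.03). The linker histones H1 had 257 CPM without glucose and 1178 CPM with it, 4.58-fold lower (4.47 to 4.69). The counting intervals of the 5 sums did not overlap, but sums follow the genes with most counts and the medians over genes gave another order. The median log2 ratio was -2.71 in H1, below -2.46 in H4, and -2.91 in H2A, below -2.80 in H2B, while H3 had the lowest at -3.55. Since the 4 core histones enter the nucleosome in equal number, the make-up of their mRNA is of interest: H4 took 31.7% of all clustered histone counts without glucose and 23.2% with it, whereas H3 took 15.1% without glucose and 24.9% with it. H1 took 23.4% of the histone counts without glucose and 15.97% with it. These are shares of counts, not corrected for gene length, and the differences between classes were not tested.

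**Figure D2:**
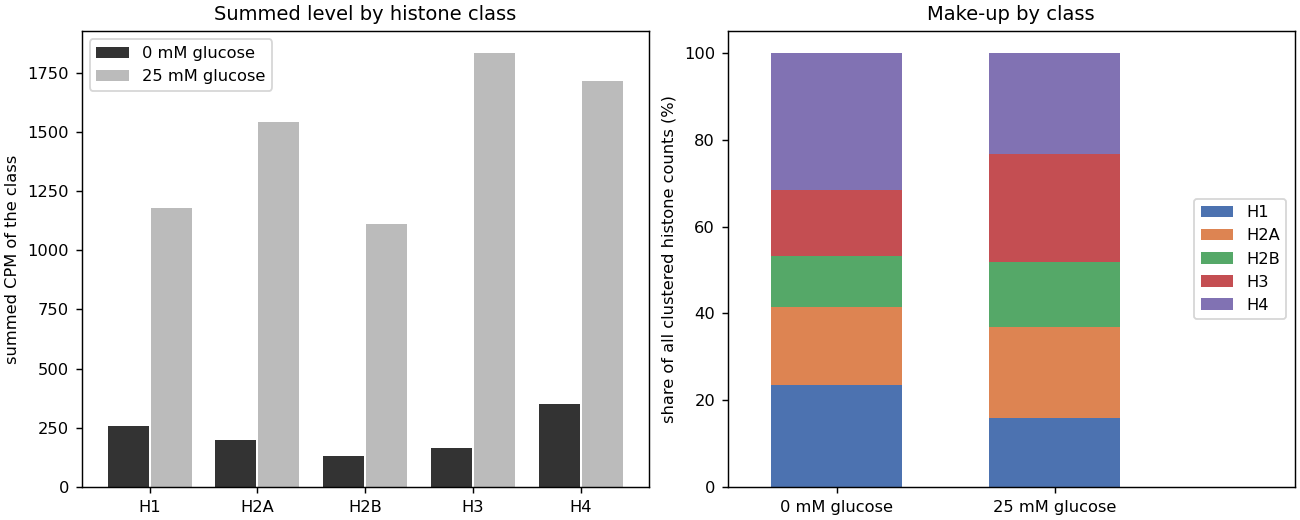
Left, summed CPM of all members of each histone class in the library with 0 mM glucose (dark bars) and with 25 mM glucose (light bars), where each bar is 1 library. Right, the share of all clustered histone counts in each class, with H3 at 15.1% without glucose and 24.9% with it.

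All 5 measured linker histone genes were lower, with folds from 3.29 to 20.02. HIST1H1C, the H1 gene with the most counts, had 127 CPM without glucose and 500 CPM with it, 3.93-fold lower (3.79 to 4.07). HIST1H1E had 105 CPM without glucose and 347 CPM with it, 3.29-fold lower (3.16 to 3.43). HIST1H1B stood at 8.17 CPM without glucose and 164 CPM with it, 20.02-fold lower (17.6 to 22.8). HIST1H1D had 16.1 CPM without glucose and 166 CPM with it, 10.3-fold lower (9.37 to 11.3). Per length, HIST1H1B had 10.2 RPKM without glucose and 214 RPKM with it, and HIST1H1D had 20.5 RPKM without glucose and 221 RPKM with it, so the pair was near level with glucose and apart without it. HIST1H1C and HIST1H1E together made up most H1 counts in both libraries, and HIST1H1B took 3.17% of them without glucose and 13.9% with it. HIST1H1A, at 7 counts without glucose and 42 with it, was lower with a log2 ratio of -2.71. HIST1H1T, the linker histone of male germ cells, had 5 counts without glucose and 0 with it and was not measured.

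Of the 16 H2A genes, all measured, 14 were lower, with a median log2 ratio of -2.91. HIST1H2AG, with the most counts, had 49.9 CPM without glucose and 361 CPM with it, 7.24-fold lower (6.86 to 7.64). HIST1H2AC had 32.3 CPM without glucose and 170 CPM with it (log2 ratio -2.40), and HIST1H2AE had 24.2 CPM without glucose and 176 CPM with it (-2.86). The lowest ratio of the class was that of HIST1H2AB, at 6.502 CPM without glucose and 156 CPM with it, 23.9-fold lower (20.8 to 27.7). Per length, HIST1H2AB had 13.5 RPKM without glucose and 338 RPKM with it, and HIST1H2AE had 42.4 RPKM without glucose and 323 RPKM with it, so these also stood apart without glucose only. The genes that passed neither bound had few counts. HIST1H2AA, a histone gene of the testis, had 5 counts without glucose and 20 with it (log2 ratio -2.13, interval -3.90 to -0.67), and HIST3H2A had 7 counts without glucose and 16 with it (-1.32, interval -2.85 to 0.04).

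Of the 17 measured H2B genes 16 were lower, with a median log2 ratio of -2.80. HIST1H2BG had 18.8 CPM without glucose and 278 CPM with it, 14.8-fold lower (13.6 to 16.1). HIST1H2BJ had 21.01 CPM without glucose and 216 CPM with it, 10.3-fold lower (9.46 to 11.2), and HIST1H2BH had 10.6 CPM without glucose and 131 CPM with it, 12.4-fold lower (11.1 to 13.9). The lowest ratio was that of HIST1H2BB, at 0.555 CPM without glucose and 14.6 CPM with it (log2 ratio -4.71, interval -5.51 to -4.02). HIST1H2BK was the measured H2B gene that was not called. It stood at 4.97 CPM without glucose and 9.11 CPM with it, a log2 ratio of -0.88 (interval -1.18 to -0.58), and this interval lay above that of each of the 16 other measured H2B genes. Its table row has 2 exons of 837 bases in all, and on hg19 its span, though not its exons, holds HIST1H4I on the other strand. HIST2H2BA and HIST2H2BC carry noncoding RefSeq accessions. HIST2H2BA had 10 counts without glucose and 57 with it and was lower, and HIST2H2BC had 4 counts without glucose and 8 with it and was not measured. HIST1H2BA, the testis H2B, had 1 count in each library.

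All 12 measured H3 genes were lower, with a median log2 ratio of -3.55. HIST1H3B was 9.61-fold lower (9.19 to 10.1), at 70.4 CPM without glucose and 677 CPM with it. HIST1H3C had 23.6 CPM without glucose and 278 CPM with it, 11.8-fold lower (10.9 to 12.7). HIST1H3D had 19.9 CPM without glucose and 253 CPM with it, 12.7-fold lower (11.7 to 13.9). The lowest ratio of all members was that of HIST1H3J, at 2.52 CPM without glucose and 75.9 CPM with it, 30.2-fold lower (24.0 to 38.4). The highest ratio of the class was that of HIST1H3E, at 2.48 CPM without glucose and 9.26 CPM with it, 3.73-fold lower (2.88 to 4.88). Per length, HIST1H3E had 5.31 RPKM without glucose and 20.7 RPKM with it, and HIST1H3J had 5.20 RPKM without glucose and 164 RPKM with it, so this pair was level without glucose and far apart with it. HIST2H3D, an H3 gene of the second cluster, had 5.13 CPM without glucose and 89.1 CPM with it, 17.4-fold lower (14.8 to 20.5). Of the 13 H3 genes only HIST3H3 was not measured, at 0 counts without glucose and 5 with it.

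All 11 measured H4 genes were lower, with a median log2 ratio of -2.46. HIST1H4D had 40.7 CPM without glucose and 435 CPM with it, 10.7-fold lower (10.1 to 11.3), the lowest ratio of the class. HIST1H4C had 68.6 CPM without glucose and 288 CPM with it, 4.201-fold lower (4.004 to 4.41). HIST4H4, which lies alone on chromosome 12 (hg19, 14923654 to 14924065, minus strand), had 118 CPM without glucose and 308 CPM with it. It was 2.62-fold lower (2.52 to 2.73), the smallest difference among the 58 lower members. HIST4H4 took 33.7% of the H4 counts without glucose, more than any other H4 gene, and 18.0% with glucose, where HIST1H4D led with 25.4%. HIST1H4L had 0 counts without glucose and 24 with it, so it was measured through the library with glucose alone. With the 0 set to a floor of 3 counts it was 8.75-fold lower, and the lower end of its counting interval was 6.58-fold. HIST2H4A had 6 counts without glucose and 0 with it, summed over both of its places. It shares 97.5% of its 50-base stretches with other members, and its level is uncertain for that reason. HIST1H4F had 0 counts without glucose and 1 with it, and HIST1H4G had 0 in both libraries.

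**Figure D3:**
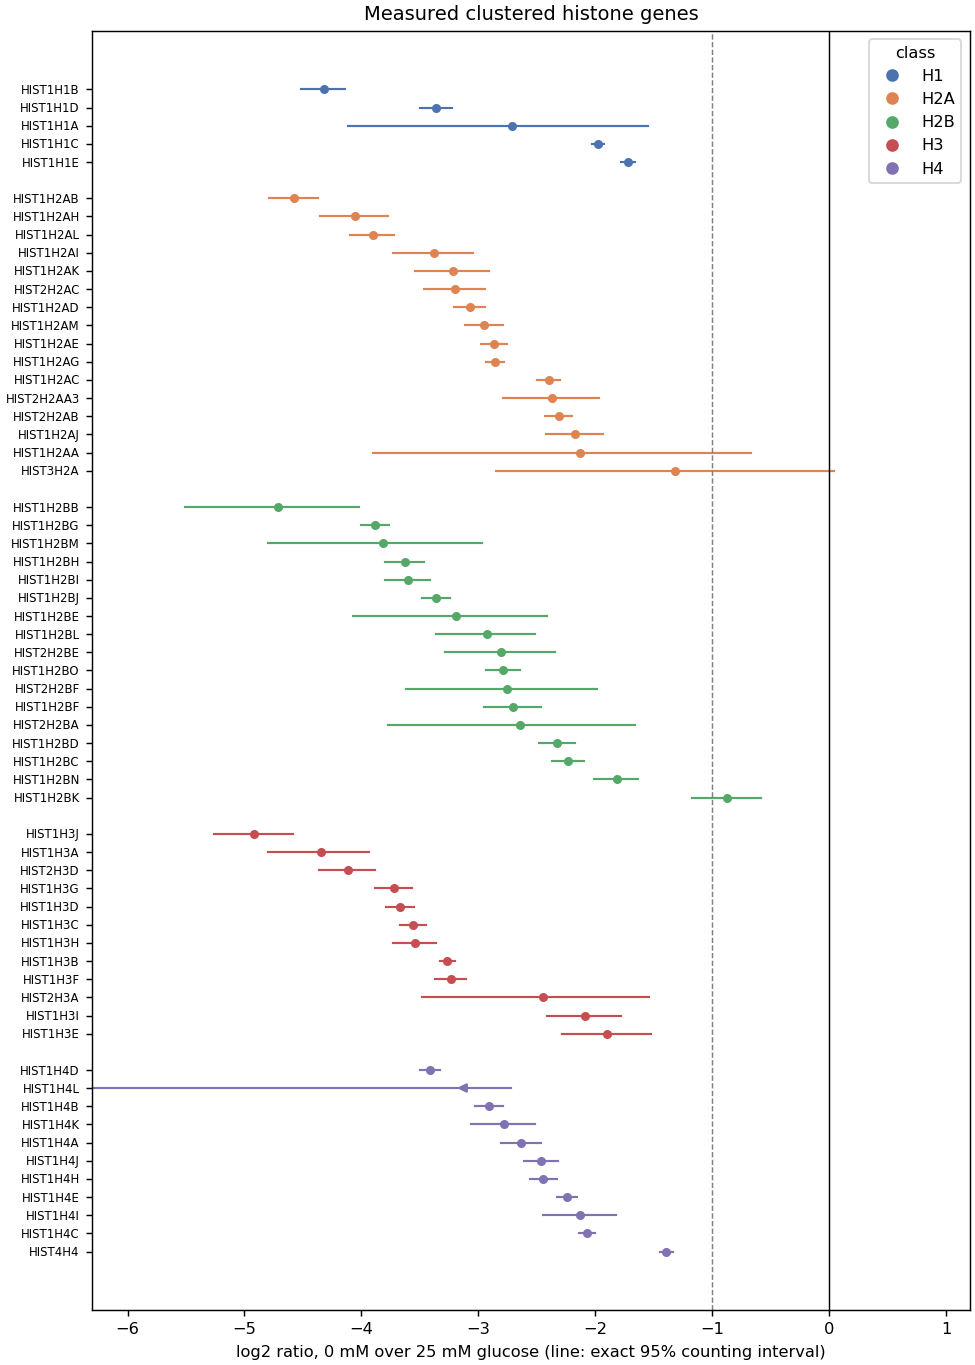
Log2 ratio of the library with 0 mM glucose over the library with 25 mM glucose for the 61 measured members (points) with exact 95% counting intervals (lines), ordered within each class. The dashed line is the 0.5-fold bound, and the intervals of HIST1H2AA, HIST3H2A and HIST1H2BK cross it. The triangle is HIST1H4L, whose interval has no lower end.

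Near-identical copies can share or lose reads, so the members were compared by how much sequence they share. In GENCODE v29 transcripts, 53 of the 69 genes had under 10% of their 50-base stretches in another member. Of these, 46 were measured and 44 were lower, with a median log2 ratio of -2.99. Of the 15 measured genes that shared 10% or more, 14 were lower, with a median of -2.78. The sums gave the other order. Genes under 10% were together 6.62-fold lower (6.54 to 6.70), and those at 10% or more 7.92-fold lower (7.59 to 8.28). Genes at 10% or more had 2329 counts without glucose and 16867 with it. Of these, the H3 genes HIST1H3J and HIST2H3D held 77 and 157 without glucose and 2123 and 2492 with it. Whether the order of the sums follows shared sequence, class or single genes was not tested. The 9.61-fold difference of HIST1H3B, the 3.93-fold difference of HIST1H1C and the 2.62-fold difference of HIST4H4 rest on genes with 0% shared. HIST1H3J, at 40.9%, HIST2H2AA3, at 100%, and HIST2H3D, at 80.4%, are less certain as single genes. The span of HIST1H3D overlaps HIST1H2AD by 452 bases on the same strand, and the 12.7-fold difference of HIST1H3D and the 8.42-fold difference of HIST1H2AD may share reads.

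By cluster, the first, on chromosome 6 (hg19, 25726291 to 27861669), held 55 genes. Of its 51 measured genes 49 were lower, with a median log2 ratio of -2.95. The second, on chromosome 1 (hg19, 120906034 to 149859466 with the outlying HIST2H2BA), held 10 genes, and all 8 measured were lower, with a median of -2.70. The third, on the same chromosome (hg19, 228612546 to 228646259), had 8 counts without glucose and 31 with it over HIST3H2A, HIST3H2BB and HIST3H3, and only HIST3H2A was measured. HIST3H2BB had 1 count without glucose and 10 with it. The fourth is HIST4H4. Split at gaps over 300 kb, the first cluster had 3 blocks, whose measured genes had medians of -2.99 (30 genes), -2.86 (5 genes) and -3.04 (16 genes). This split was chosen after the positions were seen.

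**Figure D4:**
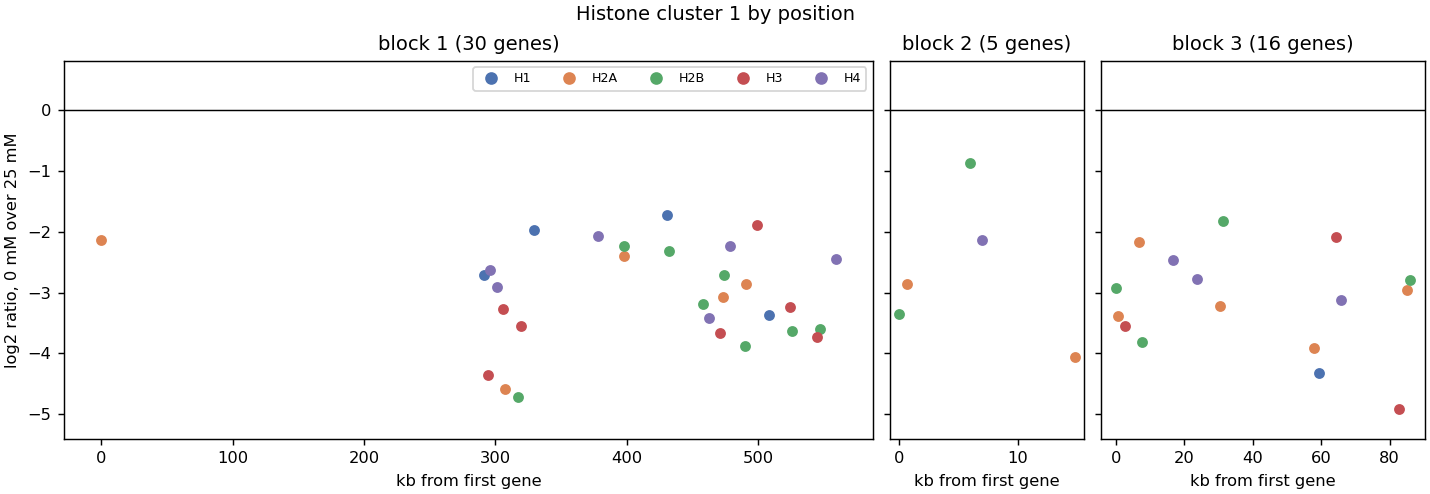
Log2 ratio (0 mM over 25 mM glucose) of the measured genes of the first histone cluster against distance in kb from the first gene of each of its 3 blocks, coloured by class. Within 1 block, HIST1H3I stands at -2.09 and HIST1H3J at -4.91, and the block medians are -2.99, -2.86 and -3.04.

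Many H2A and H2B genes stand head to head and share the DNA between them. There were 11 head-to-head pairs within 500 bases with both genes measured, of which 10 were an H2A and an H2B gene and 1 was HIST1H3D with HIST1H2BF, a gene that also pairs with HIST1H2AD. The log2 ratios within a pair differed by 0.16 to 3.18, with a median of 0.50. The counting intervals of both genes overlapped in 5 pairs and stood apart in 6. Overlap also depends on the number of counts. Members that are not paired were not compared in this way, so whether paired genes were closer was not tested. HIST1H2BC and HIST1H2AC, 241 bases apart, were close at -2.23 and -2.40, and HIST1H2AM and HIST1H2BO were close at -2.95 and -2.79. HIST1H2BK and HIST1H2AH, 271 bases apart, differed most, at -0.88 and -4.06. HIST1H2BK, at 22.6%, and HIST1H2AJ of the next pair, at 83.7%, share 50-base stretches with other members, which makes both less certain as single genes. HIST1H2AJ and HIST1H2BM had -2.17 and -3.81, and HIST1H2AK had -3.22 where its partner HIST1H2BN had -1.82.

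Histone genes outside the common short form were few. Those with more than 1 exon or over 1000 bases in the tables were HIST1H2BD, HIST1H2BK, HIST1H3D, HIST2H2BA, HIST2H2BE and HIST2H2BF. Longer models are of interest because some histone genes also make spliced or longer mRNAs with a poly(A) tail. Of these 6 genes 5 were lower, with a median log2 ratio of -2.70. Of the 55 measured short genes with 1 exon 53 were lower, with a median of -2.93. The sums gave the other order. Summed long or spliced genes were 8.46-fold lower (7.97 to 8.98) and summed short genes 6.64-fold lower (6.56 to 6.72). The sum of the long or spliced genes follows HIST1H3D, whose reads may be shared with HIST1H2AD. HIST1H3D held 608 of their 1260 counts without glucose and 7078 of their 9742 with it. Whether the order of the sums holds without HIST1H3D was not tested. HIST1H2BD had 14.02 CPM without glucose and 70.3 CPM with it (log2 ratio -2.33). HIST2H2BE, with a model of 2222 bases, had 45 counts without glucose and 287 with it (-2.80), and HIST2H2BF had 16 counts without glucose and 99 with it (-2.76), where the span of HIST2H2BF also overlaps FCGR1A on the other strand. HIST1H2BK was the exception among them.

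The promoters are shown because members with the same motifs differed in their ratios. RefSeq promoter entries (GRCh38.p14, 250 bases before to 50 after the start) were matched for 62 members, and 4 motifs were searched on both strands. The octamer ATTTGCAT, bound by OCT1 (POU2F1), was in 14 of 18 H2B and 11 of 15 H2A promoters, in 1 of 11 H3 promoters and in none of the 6 H1 and 12 H4 promoters, and in 1.77% of all 35116 promoters. The H3 promoter was that of HIST1H3D, whose 150 bases before the start are the same as those of HIST1H2AD. The searched windows of head-to-head H2A and H2B genes overlap, so a match can count for both genes of a pair. HIST1H2AE, HIST1H2AG, HIST1H2AJ and HIST2H2AC held no octamer in the 150 bases before the start. Their windows overlap those of HIST1H2BG, HIST1H2BJ, HIST1H2BM and HIST2H2BE, which held it there. The counts are therefore not all of separate sites. HIST1H2AL and HIST2H2AB, also counted with the octamer, held none in the 150 bases before the start either. The letters GGTCCG, part of the H4 element called site II, were in 11 of 12 H4 promoters and in 1 each of the H2A, H2B and H3 promoters, and in 11.3% of all promoters. In HIST1H3F and HIST2H2BE these letters, on the other strand, overlap the next motif. That motif, CCAAT, was in all 50 promoters of H1, H2A, H2B and H3 and in 3 of 12 H4 promoters, against 34.6% of all. TATAAA was in 41 of the 62 (66.1%), against 11.5% of all. The median log2 ratio was -2.95 in the 25 measured members with the octamer and -2.85 in the 30 without it. It was -2.89 in the 38 with TATAAA and -3.07 in the 17 without it. These pooled medians also compare classes. Within H2B the medians were -3.19 with the octamer (13 genes) and -2.33 without it (3 genes). Within H2A they were -2.86 (11 genes) and -2.79 (4 genes). With TATAAA the median was lower than without it in H2B (-2.93 in 11 genes and -2.76 in 5) and H4 (-2.85 in 6 genes and -2.24 in 3). It was higher with TATAAA in H1 (3 genes with it and 2 without), H2A (11 and 4) and H3 (7 and 3). Most of these groups are small. The 150 bases before the start of 5 genes follow, on the strand of the gene, with matches of the 4 motifs on either strand in capitals; GGTCCG and the octamer overlapped no other motif in them.
HIST1H3B, chr6:26032100-26032249, minus strand: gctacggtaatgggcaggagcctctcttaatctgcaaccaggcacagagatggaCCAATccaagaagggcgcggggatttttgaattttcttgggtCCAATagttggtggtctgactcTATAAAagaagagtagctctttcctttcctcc
HIST1H2BJ, chr6:27132796-27132945, minus strand: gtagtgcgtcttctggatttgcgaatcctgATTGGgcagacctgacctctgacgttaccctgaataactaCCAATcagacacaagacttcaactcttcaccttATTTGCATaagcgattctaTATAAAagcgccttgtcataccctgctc
HIST1H2BK, chr6:27146859-27147008, minus strand: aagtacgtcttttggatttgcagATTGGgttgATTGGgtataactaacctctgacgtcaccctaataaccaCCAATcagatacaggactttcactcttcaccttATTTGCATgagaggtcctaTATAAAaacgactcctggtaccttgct
HIST1H4D, chr6:26189113-26189262, minus strand: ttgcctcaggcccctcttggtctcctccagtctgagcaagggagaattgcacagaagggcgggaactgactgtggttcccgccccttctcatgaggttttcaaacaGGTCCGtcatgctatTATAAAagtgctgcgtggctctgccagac
HIST4H4, chr12:14771132-14771281, minus strand: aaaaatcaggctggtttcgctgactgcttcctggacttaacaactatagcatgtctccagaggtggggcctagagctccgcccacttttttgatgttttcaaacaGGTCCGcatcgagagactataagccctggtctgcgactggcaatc
HIST1H2BJ (log2 ratio -3.36) and HIST1H2BK (-0.88) both held CCAAT, the octamer and TATAAA in the same order, with the octamer starting at -47 and -46 from the start. HIST1H4D (-3.42) and HIST4H4 (-1.39) both held GGTCCG and TATAAA in the 300 bases searched, although TATAAA of HIST4H4 lies outside the 150 bases printed. A match of letters is a description and shows no binding.

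Genes that act on histone mRNA or histones, and the S phase genes, had list medians closer to 0 than the histone genes. These lists were chosen with earlier results of these data known. Among 40 S phase replication genes (median log2 ratio -1.23), 24 were lower (60%, all genes 6.06%) and 0 were higher (all genes 3.92%). Among them TK1, thymidine kinase, had 36.3 CPM without glucose and 135 CPM with it (log2 ratio -1.89), and PCNA, the sliding clamp of DNA polymerase, had 57.0 CPM without glucose and 190 CPM with it (-1.74). The replicative helicase factor GINS1 had -1.87, the hemimethylated DNA reader UHRF1 -1.71 and the polymerase alpha subunit POLA2 -1.69. The 24 called S phase genes were lower as the histone genes were, and their part in the histone result was not tested.

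Of 23 genes of histone gene transcription and 3′ end processing, 3 were called lower (13.0%, all genes 6.06%) and 0 higher (all genes 3.92%). The median log2 ratio of this list was -0.29. The lower genes were CDK2, a kinase that acts on NPAT, at 19.4 CPM without glucose and 62.3 CPM with it (log2 ratio -1.68), its partner cyclin E2 gene CCNE2 (-1.40), and SRRT, the ARS2 protein of the cap-binding complex (-1.16). The cyclin E1 gene CCNE1 was not lower by the rule, at 6.04 CPM without glucose and 7.22 CPM with it (-0.26, interval -0.55 to 0.04). CASP8AP2, the processing factor FLASH, had -0.87, POU2F1 -0.78 and the H4 transcription factor gene HINFP 0.72, all within the bounds. SLBP had 96.4 CPM without glucose and 138 CPM with it (-0.51), and NPAT had 49.6 CPM without glucose and 71.8 CPM with it (-0.53). LSM10 and LSM11, proteins of the particle that cuts histone pre-mRNA, had -0.22 and 0.03. SLBP, NPAT, LSM10, LSM11 and CCNE1 were not called and were named after their values were seen.

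Of 20 genes of histone mRNA translation and decay, 0 were called lower (all genes 6.06%) and 0 higher (all genes 3.92%). The median log2 ratio of this list was -0.02. MIF4GD, the SLIP1 protein that links SLBP to translation, had 28.7 CPM without glucose and 13.1 CPM with it (log2 ratio 1.13, interval 0.95 to 1.31). The decapping enzyme gene DCP2 had -0.96, the decay helicase gene UPF1 -0.65, the kinase gene PRKDC -0.64, and LSM3 and LSM4, of the ring that binds RNA ends, -0.43 and -0.31. None of these had an interval wholly beyond the bounds.

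Of 27 histone chaperone and deposition genes (median log2 ratio -0.44), 7 were called lower (25.9%, all genes 6.06%) and 0 higher (all genes 3.92%). ASF1B, which hands H3 and H4 to the replication fork, had 7.71 CPM without glucose and 36.6 CPM with it, a log2 ratio of -2.25. The other lower genes included CHAF1A, the large subunit of the replication-coupled assembly factor CAF-1 (-1.51), HJURP, the chaperone of CENPA (-1.48), NASP, a chaperone of soluble H3 and H4 (-1.39), ANP32E, a chaperone of H2A.Z (-1.36), and MMS22L (-1.30). Among 11 measured replacement histones, which lie outside the clusters, 2 were called lower (18.2%, all genes 6.06%) and 1 higher (all genes 3.92%). The median log2 ratio of the 11 was -0.19. H2AFX, the H2A variant marked at DNA breaks, had 24.1 CPM without glucose and 114 CPM with it (-2.25), and CENPA, the H3 variant of centromeres, had 8.43 CPM without glucose and 35.1 CPM with it (-2.06). H1F0, the linker histone linked to cells that have stopped dividing, was higher, at 50.5 CPM without glucose and 12.3 CPM with it (2.04, interval 1.87 to 2.21), opposite in direction to all 5 measured clustered H1 genes. H2AFZ (-1.04), H2AFV (-0.98) and H2AFY (-0.33) were not called.

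**Figure D5:**
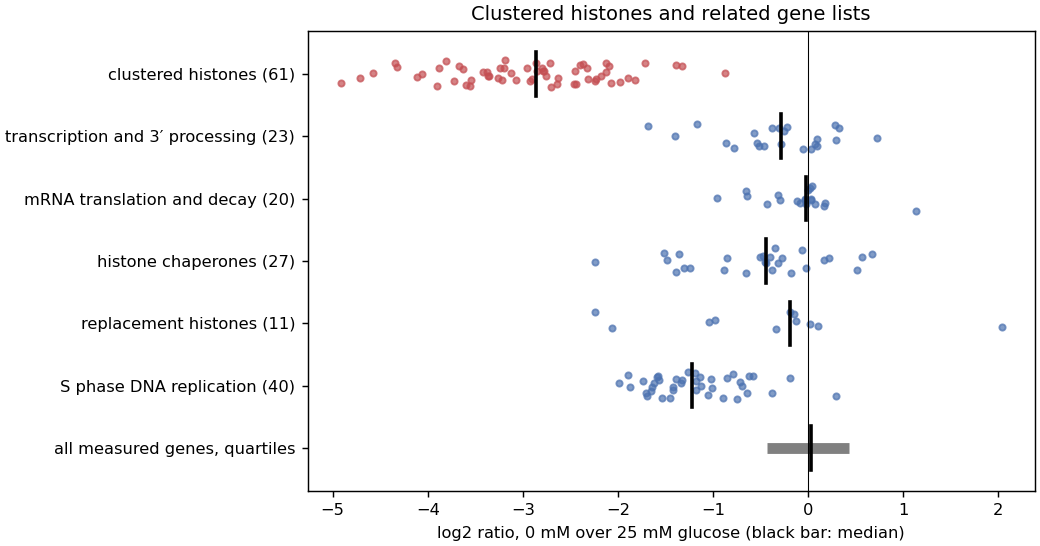
Log2 ratio (0 mM over 25 mM glucose) of the 61 measured clustered histone genes (red) and of the measured genes of 5 related lists (blue), with the median of each as a black bar and the quartiles of all measured genes in grey. The histone median is -2.86 and the S phase median -1.23, and the other list medians lie between -0.44 and -0.02.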

How the data were processed

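RNA of 786-O cells was sequenced in 1 library with 0 mM glucose and 1 with 25 mM glucose, grouped by their titles. The deposited tables list 24364 rows, and the authors' Count column holds raw counts and the RPKM column reads per kilobase per 1000000 reads, per the file headers. Gene models are on hg19, per the submitters' processing notes; the sources used here name no aligner, counter, strand setting or read length. RPKM was used for levels between genes and counts for all ratios.

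Repeat rows (538), with place and counts equal to an earlier one, were dropped, place suffixes removed and counts summed by symbol (22161 symbols). CPM used TMM sizes of edgeR 4.0.16 in R 4.3.3 (factors 0.976 without glucose and 1.02 with it). Ratios are without glucose over with glucose, without pseudocount, with no replicate check and exact 95% Clopper-Pearson intervals (scipy 1.17.1), which cover counting error only; a 0 was set to 3 counts (0.0980 CPM without glucose, 0.107 CPM with it). The procedure was tested on simulated data.

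Genes named were, per class, the 3 with most counts and the lowest and highest ratios, all of clusters 3 and 4, long or spliced members with at least 100 counts, measured members not called, and up to 6 per list with the largest ratios and at least 100 counts; others were named after their values were seen. The members and lists were chosen with earlier results of these data known. The list gene CTIF was not matched. A gene that the rule also names is not reported here. DESeq2 1.42.0 gave an alternative scaling. Sequences came from RefSeq (GRCh38.p14) and GENCODE v29 (GRCh38).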

Additional observations from a re-analysis of the deposited data

How the results depend on the processing

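No paired analysis was possible because there was 1 library with glucose and 1 without it, and for the same reason leaving out a replicate was not possible. No direction of a called result turned under any alternative run. The number of lower members was 45 to 60 under the alternatives run, with 45 at a 4-fold bound and 60 with all rows kept, and 58 as reported. The run with all rows kept covered 72 symbols in place of 69. Its 60 includes HIST2H2AA4 and HIST2H3C, whose rows repeat those of HIST2H2AA3 and HIST2H3A, so they are no further genes. With 1 CPM added to both libraries, the median log2 ratio was -2.53 over all members, -2.25 over H2B and -2.06 over the second cluster, and HIST1H1A, HIST1H4L, HIST2H2BA and HIST2H3A were no longer called. Scaling by total counts moved the summed log2 ratios to -2.26 for H1, -3.03 for H2A, -3.16 for H2B, -3.54 for H3, -2.37 for H4 and -2.82 for all members, and that of HIST4H4 to -1.46. Upper-quartile scaling gave -2.33 for H4 and -2.78 for all members, and DESeq2 size factors gave -2.72 for all members. The share of counts without small RNA genes was 0.117% without glucose and 0.802% with it.

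With a 1.5-fold bound, 1743 of all genes were lower and 1512 higher, and with a 4-fold bound 142 and 124, where the main rule gave 862 and 558. The 1.5-fold bound called 5 of 23 transcription and processing genes, 4 of 11 replacement histones and 2 of 20 translation and decay genes lower. It called 1 gene of the last list higher. At this bound 12.2% of all genes were lower and 10.6% higher. The 4-fold bound called 3 of 6 long or spliced members, 1 of 27 chaperone genes and 1 of 11 replacement histones lower. It called 0 of 40 S phase genes and 0 of 23 transcription and processing genes lower, and 0 replacement histones higher. At this bound 0.998% of all genes were lower and 0.871% higher. These counts follow from the size asked for, and the cause of the other differences was not tested. Depth limits the 8 members under 20 counts, and single genes with near-identical copies remain uncertain.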
